A study of Mus musculus with 4 samples.

Results

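Peritoneal-type macrophages were the mouse ovarian leukocytes that held both complement C1q transcripts and a group of transcripts known from macrophages of the body cavities. They were chosen from their own RNA. A barcode had to hold at least 3 unique molecular identifiers (UMIs, counted transcript molecules) of C1qa, C1qb and C1qc together, and at least 10 UMIs of Fn1, Ltc4s, Prg4, Saa3 and Alox15 together. It could hold at most 1 UMI of the B cell genes Cd79a and Ms4a1 and at most 1 of the T cell genes Cd3d, Cd3e and Cd3g. Of 6245 barcodes that passed the filters, 169 met this rule. They comprised 48 barcodes with the hashtag of 1 mouse and 121 that the authors' hashtag call gave as doublets, which carry tags of a pair of mice and so belong to no single mouse. Both kinds are described, always apart.

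The cells came from female C57BL/6J mice aged 10 to 12 weeks. The gonadotropin group (5 mice) had received gonadotropin and the untreated group (5 mice) had received saline, and ovaries were taken 48 h later. Viable CD45+ cells were sorted, and each mouse's cells received 1 TotalSeq-B hashtag antibody. The mice of a group were then pooled into 1 library on the 10x Genomics Chromium 3' platform, so the treatment cannot be told apart from the pool and its library. The agent, its dose and the cycle stage of the mice were not given in the sources used here.

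Macrophages of the peritoneal cavity bathe in the fluid around the abdominal organs, the ovary among them, and are known to enter organs through their surface. In mice the large, long-lived kind depends on the transcription factor GATA6 and on retinoic acid, carries ICAM2 and TIM4, and makes clotting factor V. A smaller kind that comes from blood monocytes carries CCR2 and MHC class II, the molecules that present peptides to CD4 T cells. Gonadotropins drive follicle growth and ovulation, which opens the ovarian surface.

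The gonadotropin pool gave 3102 filtered barcodes, 2423 with 1 hashtag and 679 hashtag doublets. The untreated pool gave 3143, with 2495 and 648. Another 89 barcodes carried no hashtag call, and 0 of them met the RNA rule. The libraries shared 4 barcode sequences, none of them among the 169. Transcripts of 4 hemoglobin genes summed to 54.3 to 56.2 CPM (UMIs of a gene per 1000000 UMIs) in the peritoneal-type macrophages of gonadotropin mice with at least 5 such cells. They summed to 0 to 12.3 CPM in those of untreated mice. The part of free RNA in the results was not tested.

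The rule left a gap. Among C1q-positive barcodes, the highest sums of the 5 rule genes outside it were 5, 5, 6, 7 and 7 UMIs. The lowest inside it were 10, 10 and 15. This sum itself set the classes and is not scaled to depth, so the gap is a description. Single-hashtag C1q-positive cells outside the rule had median totals of 2218 (gonadotropin) and 2503 UMIs (untreated), against 21972 and 19216 in single-hashtag members. Of the 169 members, 138 held 60 UMIs or more of these genes. The 146 C1q-positive barcodes below the threshold, 97 of them with a sum of 0, serve as the comparison below. The gene that carried most members over the threshold was Fn1, fibronectin, a matrix protein that macrophages secrete. It was found in 110 of 110 gonadotropin doublets and 28 of 28 gonadotropin singles, and in 11 of 11 and 20 of 20 untreated ones. Ltc4s, the synthase of leukotriene C4, was found in 101 of 110 doublets and 26 of 28 single-hashtag cells of the gonadotropin pool, and in 9 of 11 and 17 of 20 of the untreated pool.

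**Figure D1:**
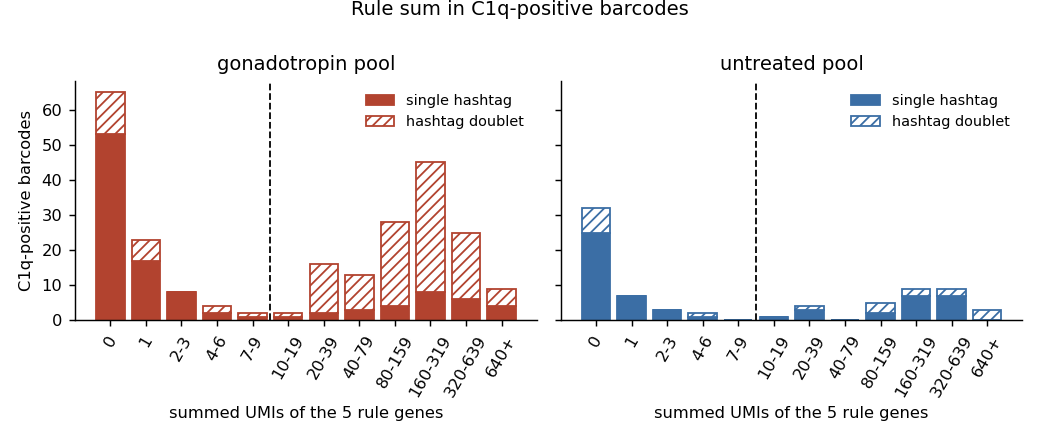
Number of C1q-positive barcodes (y axis) by the summed UMIs of Fn1, Ltc4s, Prg4, Saa3 and Alox15 (x axis, bins of unequal width), for the gonadotropin pool at the left and the untreated pool at the right; hatched parts are hashtag doublets, filled parts single-hashtag barcodes, and the dashed line is the threshold of 10. Few barcodes lie near the line, and the hatched part dominates above it in the gonadotropin pool.

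The remaining rule genes were found in fewer of the cells. Prg4, the lubricating proteoglycan lubricin, was found in 41 of 110 doublets and 13 of 28 single-hashtag cells of the gonadotropin pool, and in 7 of 11 and 11 of 20 of the untreated pool. Saa3, an acute-phase apolipoprotein, was found in 32 of 110 and 9 of 28 gonadotropin barcodes, and in 7 of 11 and 11 of 20 untreated ones. Alox15, a lipoxygenase of resident peritoneal macrophages, was found in 16 of 110 and 9 of 28 gonadotropin barcodes, and in 7 of 11 and 10 of 20 untreated ones. Of the markers outside the rule, Cd5l, a secreted scavenger receptor protein, was found in 60 of 110 and 22 of 28, and in 7 of 11 and 10 of 20. Cxcl13, a chemokine that draws B cells to the body cavities, was found in 5 of 110 and 3 of 28, and in 5 of 11 and 5 of 20. Free RNA sets the floor for such shares. In B cells, which should lack these genes, Fn1 had a UMI in 4.44% of 990 gonadotropin cells and 0.824% of 1335 untreated cells, Ltc4s in 1.31% and 0.449%, and Saa3 in 2.12% and 2.10%, at median depths of 6235.5 and 7256 UMIs, against 21972 and 19216 in single-hashtag members.

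Members reached between 456 and 18003 CPM of Fn1 in the gonadotropin pool and between 1284 and 10606 CPM in the untreated pool. Saa3 spread far more. It was 0 in 78 of 110 gonadotropin doublets and in 19 of 28 gonadotropin singles, and its highest values were 43110 and 39577 CPM; in the untreated pool it was 0 in 4 of 11 doublets and 9 of 20 singles, with highest values of 36390 and 7930 CPM. These genes chose the cells, so their spread is a description of the members and no finding.

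The hashtag calls of these cells stood apart from the rest of the data in the gonadotropin pool. There, 110 of 138 members were hashtag doublets, or 79.7% (95% Clopper-Pearson interval 72.0 to 86.1). In the untreated pool 11 of 31 were, or 35.5% (19.2 to 54.6). C1q-positive barcodes below the threshold had doublet shares of 20.6% (13.2 to 29.7) in the gonadotropin pool and 18.2% (8.19 to 32.7) in the untreated pool. All other barcodes had 19.1% and 20.5%. The gonadotropin and untreated intervals of the members did not overlap, and those of the C1q-positive barcodes below the threshold did. These intervals, and all others given here, cover counting error only. There was 1 pool in each group, so no test over mice could be made of the doublet share.

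Counted over single-hashtag barcodes alone, the pools differed little. The cells made up 1.16% of gonadotropin and 0.802% of untreated single-hashtag barcodes. Among hashtag doublets they made up 16.2% (13.5 to 19.2) in the gonadotropin pool and 1.70% (0.850 to 3.02) in the untreated pool. Over all filtered barcodes the share was 4.45% (3.75 to 5.23) in the gonadotropin pool and 0.986% (0.671 to 1.40) in the untreated pool. Most of these macrophages in the gonadotropin pool are thus outside any count by mouse.

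**Figure D2:**
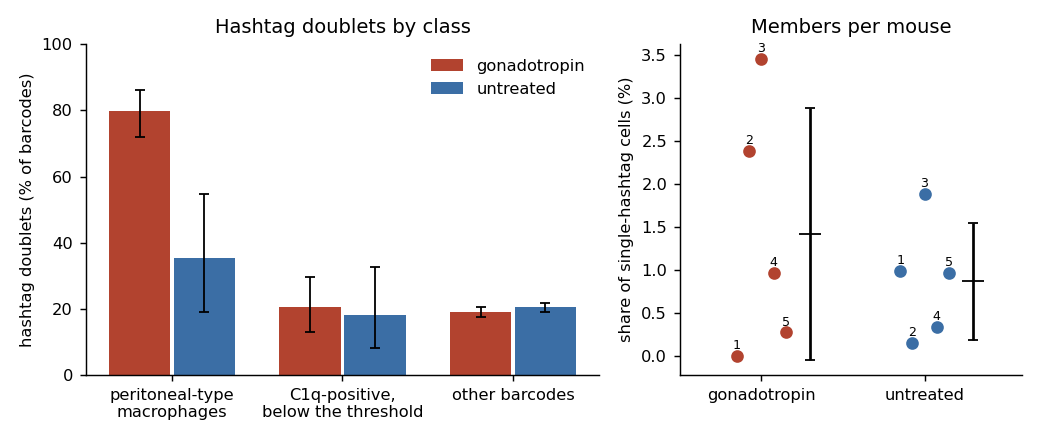
Left, hashtag doublets as a percentage of barcodes in 3 classes, with gonadotropin bars left of untreated ones and exact 95% binomial intervals; right, single-hashtag members as a percentage of the single-hashtag cells of each mouse, 1 numbered point a mouse, with the mean and SD over 5 mice beside the points. The gonadotropin bar of the peritoneal-type macrophages stands at 79.7%, the other 5 bars between 18.2% and 35.5%, and the mice of the groups overlap.

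The depth of these doublets was close to that of single-hashtag members. The median was 24745 UMIs in gonadotropin doublets and 21972 UMIs in gonadotropin singles, a ratio of 1.13. In the untreated pool it was 20309 UMIs in doublets and 19216 UMIs in singles, a ratio of 1.06. Among all other barcodes, doublets had 2.08 times the median UMIs of single-hashtag barcodes in the gonadotropin pool (14684 against 7057) and 1.75 times in the untreated pool (13448 against 7663). Among C1q-positive barcodes below the threshold, with 21 and 8 doublets, the ratios were 5.48 (12152 against 2218) and 4.54 (11362 against 2503). Genes per barcode showed the same closeness in the members, with medians of 4939 in doublets and 4744 in singles of the gonadotropin pool, and of 4494 and 4393.5 in the untreated pool. Median hashtag counts were 1731.5 in doublets and 1243 in singles of the gonadotropin members, 1.39 times, and 1.55 times in the other barcodes of that pool.

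Depth moved with the doublet call in the other barcodes. In the gonadotropin pool, 11.7% of those under 15000 UMIs were doublets, 55.0% of those from 15000 to 25000, and 79.8% of deeper ones. The members of that pool had doublets in 10 of 16 barcodes under 15000 UMIs (62.5%), in 51 of 62 from 15000 to 25000 (82.3%) and in 49 of 60 deeper ones (81.7%). In the untreated pool the members had 0 of 4, 8 of 22 (36.4%) and 3 of 5 (60%), and the other barcodes 14.2%, 49.0% and 79.8%. Gonadotropin members thus exceeded the other barcodes of their pool in the lower and middle depth ranges, and the untreated members did not.

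**Figure D3:**
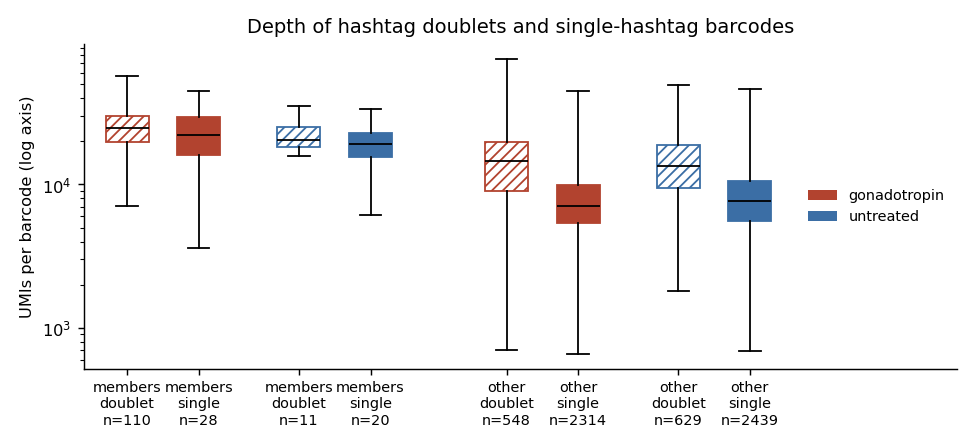
UMIs per barcode on a log axis for members and for all other barcodes outside the C1q-positive classes, with hashtag doublets (hatched) beside single-hashtag barcodes (filled); boxes span the quartiles, the line is the median and the whiskers reach the lowest and highest barcode. Doublets and singles of the members overlap closely, with medians of 24745 and 21972 UMIs in the gonadotropin pool, while other doublets are about 2-fold deeper than other singles (14684 against 7057).

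Lymphocyte transcripts were rare in the doublets. Leaving out the limits on B and T cell UMIs, 126 gonadotropin doublets met the macrophage part of the rule, and 16 of them (12.7%, 7.44 to 19.8) exceeded a lymphocyte limit, as did 2 of 30 single-hashtag barcodes. In the untreated pool 3 of 14 doublets and 1 of 21 singles did. Over all barcodes of the pools, such lymphocyte UMIs were present in 60.7% of gonadotropin and 83.0% of untreated doublets. They were also present in 68.4% of gonadotropin and 82.5% of untreated single-hashtag barcodes, so these shares give no rate of mixing in doublets. Within the members, at least 5 UMIs of B, T, NK or neutrophil markers were held by 23 of 110 gonadotropin doublets (20.9%) and 4 of 28 singles (14.3%), and by 3 of 11 doublets and 4 of 20 singles of the untreated pool. The rule's own limits on B and T cell UMIs keep the B and T part of this count low.

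Neutrophil transcripts were high in a few doublets. The 6 neutrophil markers summed to 1032 CPM in gonadotropin doublets and 82.7 CPM in gonadotropin singles, and to 98.9 and 99.2 CPM in the untreated ones. In gonadotropin doublets 77.3% of these UMIs lay in 2 barcodes. At least 5 of them were held by 15 of 110 gonadotropin doublets and 4 of 28 singles, and by 2 of 11 and 4 of 20 of the untreated pool. S100a8 and S100a9, the subunits of calprotectin, reached 418 and 480 CPM in gonadotropin doublets against 7.96 and 3.18 CPM in gonadotropin singles. The 6 NK cell markers summed to 88.0 CPM in gonadotropin doublets and 7.96 CPM in singles. The 7 T cell markers summed to 6.58 and 1.59 CPM, in members whose T cell UMIs the rule had limited. All 8 mesothelial and 4 fibroblast markers were at 0 UMIs in all 169 members.

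The tags on the doublets did not follow all mice alike. Of the 110 gonadotropin doublets, 5 carried the tag of mouse 1, 46 that of mouse 2, 73 that of mouse 3, 56 that of mouse 4 and 40 that of mouse 5. The single-hashtag members of these mice numbered 0, 9, 10, 8 and 1. Mouse 1 was thus nearly absent on both counts, while mouse 5 had 1 single-hashtag member and a tag on 40 doublets. Among the 548 other doublets of the pool the tags of mice 1 to 5 were on 131, 172, 277, 283 and 233. The commonest pairs among members were mice 3 and 4 (32 barcodes) and mice 2 and 3 (24). In the untreated pool each tag was on 4 or 5 of the 11 doublets.

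Doublets and single-hashtag members differed by 2-fold in few genes. Of 1549 genes with at least 100 CPM in both pools, 3 (0.194%) were at least 2-fold apart in the same direction in both. Plac8, a gene of monocytes and other myeloid cells, stood at 405 CPM in doublets and 193 CPM in singles of the gonadotropin pool, and at 161 and 26.1 CPM in the untreated pool. Trerf1, a transcriptional regulator, had 149 and 57.3 CPM in the gonadotropin pool and 651 and 279 CPM in the untreated pool. Slc8a1, a sodium-calcium exchanger, had 127 and 35.0 CPM, and 115 and 52.2 CPM. In single pools 16 genes (0.898% of 1782) and 77 genes (4.25% of 1812) were that far apart, the first count being of the gonadotropin pool and the second of the untreated pool with its 11 doublets. Fn1 stood at 6339 CPM in doublets and 8166 CPM in singles of the gonadotropin pool, and at 5906 and 6610 CPM in the untreated pool. Icam2, an adhesion molecule of large peritoneal macrophages, stood at 324 and 422 CPM, and at 243 and 271 CPM.

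On average, the members held more of the listed transcripts of peritoneal macrophages than the C1q-positive cells below the threshold. The rule fixed this contrast, so it is described without a test, as means of CPM over the 5 mice with at least 5 single-hashtag cells of both classes. The classes differed in depth, with medians of 21972 (gonadotropin) and 19216 UMIs (untreated) in single-hashtag members, against 2218 and 2503 UMIs in single-hashtag cells below the threshold. Of 6980 genes with at least 20 CPM, 9.28% were at least 2-fold higher in members and 11.1% at least 2-fold lower. Of 31 listed peritoneal macrophage genes at that level, 29 were at least 2-fold higher, as were 13 of 14 general markers of large peritoneal macrophages. These means cover members on both sides of a split by MHC class II that is described below. The high side, where the markers of large peritoneal macrophages were mixed, held 19 of 28 gonadotropin and 9 of 20 untreated single-hashtag members.

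Of 7 listed antimicrobial genes 6 were at least 2-fold higher in members. Lyz1, a lysozyme, averaged 1068 CPM in members and 0 CPM in cells below the threshold. Slpi, an inhibitor of neutrophil proteases, averaged 2032 CPM in members and 11.8 CPM below. Both means rest largely on few cells. In single-hashtag members the top pair of cells held 76.7% (gonadotropin) and 63.2% (untreated) of the Lyz1 UMIs. For Slpi it held 61.9% and 79.7%, and Slpi was found in 17 of 28 gonadotropin and 9 of 20 untreated singles. Prtn3, proteinase 3, was named for the size of its difference and averaged 338 CPM in members and 0 CPM below. Padi4, the enzyme that citrullinates histones, is on the peritoneal macrophage list and averaged 408 CPM and 1.58 CPM.

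Of 9 listed clotting genes 7 were at least 2-fold higher. F5, clotting factor V, averaged 366 CPM in members and 0 CPM below the threshold. Serpinb2, plasminogen activator inhibitor 2, averaged 363 and 0 CPM. Thbs1, thrombospondin 1, averaged 665 and 21.8 CPM, Selp, P-selectin, 196 and 0 CPM, and Ednrb, an endothelin receptor, 564 and 0 CPM. Thbs1, Selp and Ednrb are listed markers of large peritoneal macrophages. Ltbp1, which binds latent TGF-beta, was named for the size of its difference and averaged 607 and 0 CPM. In eicosanoid synthesis 8 of 15 genes were at least 2-fold higher and 2 lower. Ptgis, prostacyclin synthase, averaged 145 and 0 CPM, while Hpgds, the synthase of prostaglandin D2, averaged 0.804 and 198 CPM. Of 8 retinoid signalling genes 4 were higher, among them Rarb, a retinoic acid receptor, at 108 and 7.91 CPM. Each of the Lyz1, Slpi, Prtn3, Padi4, F5, Serpinb2, Thbs1, Selp, Ednrb and Ltbp1 values was higher in 5 of 5 mice.

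Listed genes of other macrophages went both ways in the members. Of 7 genes listed for tissue macrophages of the Trem2 type, with at least 20 CPM, 4 were at least 2-fold lower and 2 at least 2-fold higher. Of 6 general macrophage markers outside the rule, 2 were that much lower and 1 that much higher. The 5 genes given next were chosen for the size of their difference and do not stand for these lists. Ms4a7 averaged 1.61 CPM in members and 859 CPM below the threshold. Cx3cr1, the fractalkine receptor of tissue macrophages and monocytes, averaged 44.4 and 704 CPM, and Tgfbr1, a TGF-beta receptor, 28.1 and 1335 CPM. The chemokine Ccl4 averaged 1.58 and 306 CPM, and Ccl12 0 and 141 CPM. These 5 genes were lower in 5 of 5 mice. Of 13 listed chemokines 6 were at least 2-fold lower and 6 at least 2-fold higher in members, Ccl6 among the higher at 3389 and 602 CPM and Ccl9 at 765 and 208 CPM. Of 12 interferon response genes 9 were at least 2-fold lower in members, and of 7 MHC class II genes 5 were, with H2-Aa at 1889 and 5318 CPM. With cells thinned to 2000 UMIs, all 30 genes chosen for size kept their direction and stayed at least 2-fold apart, on 40 member cells and 38 of the 58 cells below. Between the hashtag doublets of the classes, 29 of the 30 had the same direction, and Ccl4 stood at 0.63 on the log2 scale.

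The members did not form an even population. The summed level of the MHC class II genes H2-Aa, H2-Ab1, H2-Eb1 and Cd74 ran from 0 to 46318 CPM in gonadotropin singles. Across cells it was opposed to the sum of 12 large peritoneal macrophage markers, with Spearman correlations of -0.74 over 110 gonadotropin doublets, -0.69 over 28 gonadotropin singles and -0.73 over 20 untreated singles. This sum leaves Itgam and Cd93 out of the 14 listed markers. Itgam averaged 1491 CPM in members and 181 CPM below the threshold, and Cd93, the other way, 59.1 and 167 CPM. The cells of a pool share a library, and both sums were divided by the UMI total of the cell. With Ccr2, the receptor that draws monocytes into tissue, the correlations were 0.64, 0.77 and 0.82. Cells were therefore described on either side of 2000 CPM of MHC class II, a value chosen after the data were seen. Between 1000 and 4000 CPM lay 13 of 110 doublets and 1 of 28 singles of the gonadotropin pool, and 1 of 11 and 2 of 20 of the untreated pool.

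The MHC class II-low side carried the known markers of large peritoneal macrophages, which stand outside the rule. Gata6 stood at 88.0 CPM in its gonadotropin doublets and 126 CPM in its gonadotropin singles, and at 116 and 162 CPM in the untreated ones. On the MHC class II-high side it stood at 12.8 and 9.86 CPM, and at 20.8 and 5.59 CPM. Timd4, the phosphatidylserine receptor TIM4, stood at 110 and 193 CPM on the low side of the gonadotropin pool and at 253 and 235 CPM in the untreated pool; on the high side it had 0 UMIs in the 84 doublets and 19 singles of the gonadotropin pool, and 83.2 CPM in the 4 doublets (8 UMIs) and 0 in the 9 singles of the untreated pool. Icam2 and Ednrb were found on both sides. Icam2 stood at 584 and 566 CPM on the low side and 230 and 343 CPM on the high side of the gonadotropin pool, and at 396 and 451 CPM, and 10.4 and 67.0 CPM, in the untreated pool. Ednrb stood at 786 and 862 CPM, and 354 and 441 CPM, in the gonadotropin pool, and at 928 and 882 CPM, and 135 and 50.3 CPM, in the untreated pool. Ccr2 lay on the high side, at 1077 and 976 CPM in the gonadotropin and 1457 and 1497 CPM in the untreated pool, against 452 and 62.9 CPM, and 218 and 176 CPM, on the low side. The check by large peritoneal macrophage markers was thus met on the MHC class II-low side and was mixed on the high side. There Gata6 stood at 20.8 CPM or less, while Icam2 and Ednrb were present in the gonadotropin pool. Icam2 had 1 UMI in the 4 untreated doublets of that side. Members of both sides had met the rule itself.

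The MHC class II-high side held more of the gonadotropin than of the untreated members, with intervals that overlap. It held 84 of 110 doublets (76.4%, 67.3 to 83.9) and 19 of 28 singles (67.9%, 47.6 to 84.1) in the gonadotropin pool, against 4 of 11 doublets (36.4%, 10.9 to 69.2) and 9 of 20 singles (45%, 23.1 to 68.5) in the untreated pool. By mouse, the high side held 5, 7 and 7 cells of gonadotropin mice 2, 3 and 4 and none of the single cell of mouse 5. In untreated mice 1 to 5 it held 4, 0, 3, 1 and 1 cells. The low side held 4, 3, 1 and 1 cells of gonadotropin mice 2 to 5, and 1, 1, 3, 0 and 6 cells of the untreated mice. These counts overlap between mice and were not tested.

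Some members on the high side also held the large macrophage markers. Among MHC class II-high members, at least 1000 CPM of the 12 large macrophage markers was found in 34 of 84 gonadotropin doublets (40.5%) and 11 of 19 gonadotropin singles (57.9%), and in 1 of 4 doublets and 1 of 9 singles of the untreated pool. The gonadotropin singles of this kind came from mice 2, 3 and 4, with 3, 3 and 5 cells. Retnla, a secreted protein of alternatively activated macrophages, was high in part of the cells. It reached 1000 CPM in 14 of 110 doublets and 3 of 28 singles of the gonadotropin pool, and in 4 of 11 and 5 of 20 of the untreated pool. Of these, 13 of the 14 and 2 of the 3, and 3 of the 4 and 5 of the 5, were on the MHC class II-high side. Its Spearman correlation with the MHC class II sum was 0.14 over 110 gonadotropin doublets, -0.13 over 28 gonadotropin singles and 0.47 over 20 untreated singles. With the large macrophage markers it was -0.18, 0.06 and -0.35.

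**Figure D4:**
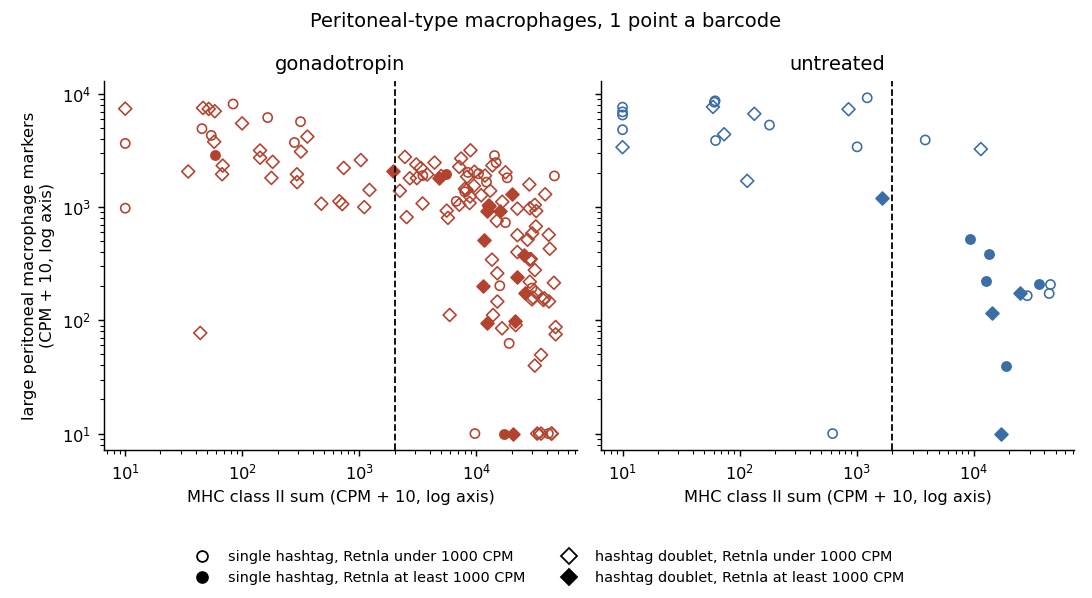
Summed MHC class II level (x axis, CPM + 10, log) against the sum of 12 large peritoneal macrophage markers (y axis, CPM + 10, log), 1 point a member, with the gonadotropin pool at the left and the untreated pool at the right; circles are single-hashtag barcodes, diamonds hashtag doublets, filled points have at least 1000 CPM of Retnla, and the dashed line is 2000 CPM. Both kinds of barcode follow the same falling band, and the area high in both sums holds 34 doublets and 11 singles of the gonadotropin pool and 1 of each in the untreated pool.

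The first comparison over mice asked whether the share of these cells differed after gonadotropin. In gonadotropin mice 1 to 5 they were 0 of 563, 9 of 378, 10 of 290, 8 of 828 and 1 of 364 single-hashtag cells. That is 0% (allowing up to 0.533%), 2.38%, 3.45%, 0.966% and 0.275%. In untreated mice 1 to 5 they were 5 of 505, 1 of 650, 6 of 318, 1 of 296 and 7 of 726 cells, or 0.990%, 0.154%, 1.89%, 0.338% and 0.964%. The groups overlapped. The mean was 1.41% ± 1.46 in gonadotropin mice and 0.867% ± 0.681 in untreated mice (SD, n = 5 each), and the difference did not pass an exact two-sided permutation test (p = 0.492; the smallest p possible is 0.00794). Among C1q-positive cells the share was 24.6% ± 21.9 in gonadotropin and 34.4% ± 22.4 in untreated mice (SD, n = 5 each; exact permutation p = 0.5). Adding the doublets, which have no mouse, was not possible here. Without gonadotropin mouse 3 the difference of the first share was 0.0389 percentage points, and without mouse 1 it was 0.901.

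The second comparison asked which genes differed with treatment within these cells. Counts were summed per mouse for the 3 mice of each group with at least 5 single-hashtag members, gonadotropin mice 2, 3 and 4 and untreated mice 1, 3 and 5. These sums held 147343 to 248899 UMIs in gonadotropin and 81436 to 142777 UMIs in untreated mice. The p-values measure the spread between these mice and include no spread between pools. By edgeR's quasi-likelihood test, 4 of 2617 genes (0.153%) passed a Benjamini-Hochberg adjusted p of 0.05, with 1 higher (0.0382%) and 3 lower (0.115%) after gonadotropin, and 243 genes (9.29%) had an unadjusted p under 0.05. The heat shock gene Hspa1b was higher, and Tenm4, Pde4b and Cd81 were lower. DESeq2's Wald test called 7 genes, Cd81 among them, and gave no adjusted p for the other 3. The count rests on single mice. It was 0 without gonadotropin mouse 2 or untreated mouse 3, 1 without gonadotropin mouse 3, 10 without untreated mouse 5 and 19 without untreated mouse 1. Each of the 4 genes missed the threshold without gonadotropin mouse 2, gonadotropin mouse 3 or untreated mouse 3.

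Hspa1b (chromosome 17, 34956429 to 34959238, GRCm38.p6) encodes the inducible chaperone HSP70. It had 143, 217 and 210 CPM in gonadotropin mice 2, 3 and 4, against 36.8, 31.7 and 21.0 CPM in untreated mice 1, 3 and 5. Every gonadotropin mouse was above every untreated mouse. The log2 fold change was 2.62 ± 0.40 (SE, edgeR adjusted p = 0.0369). In the doublets Hspa1b had 164 CPM in the gonadotropin and 94.8 CPM in the untreated pool, a ratio of 1.74 (exact conditional 95% interval 1.14 to 2.76, as for the ratios that follow), against 6.54 (3.52 to 13.5) in singles. Its neighbour Hspa1a (chromosome 17, 34969359 to 34972156) is nearly identical, and short reads can be split wrongly between them. It had 133, 177 and 115 CPM in gonadotropin mice and 24.6, 15.8 and 56.0 CPM in untreated mice (log2 fold change 1.98 ± 0.48, edgeR adjusted p = 0.225). Neither group overlapped the other in either gene.

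The promoters of this gene pair are shown because they are nearly identical and hold the element that heat shock factor binds. RefSeq's GRCm38.p6 sequences give the 250 bases before each start, on the minus strand, at chr17:34972157-34972406 for Hspa1a and chr17:34959239-34959488 for Hspa1b. Capitals mark a match to GAANNTTC, searched on both strands.
Hspa1a: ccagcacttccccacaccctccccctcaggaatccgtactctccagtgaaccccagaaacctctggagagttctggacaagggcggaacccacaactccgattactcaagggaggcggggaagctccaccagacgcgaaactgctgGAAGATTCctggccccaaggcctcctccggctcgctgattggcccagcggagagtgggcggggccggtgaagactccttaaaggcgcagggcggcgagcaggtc
Hspa1b: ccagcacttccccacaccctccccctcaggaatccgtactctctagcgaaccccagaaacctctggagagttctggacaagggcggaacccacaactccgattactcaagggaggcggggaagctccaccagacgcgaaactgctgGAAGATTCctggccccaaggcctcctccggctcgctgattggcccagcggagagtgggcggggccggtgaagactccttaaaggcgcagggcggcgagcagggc
The windows differ in 3 of 250 bases and each holds 1 match. Such a match was present in 2199 of 32851 promoter windows of that length (6.69%). The listed windows of Tenm4, Pde4b, Cd81 and Retnla held none.

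Besides this pair, 5 heat shock genes of the list were tested, and none passed. Their fold changes were positive, with a median of 0.38 on the log2 scale against -0.03 over all tested genes. In 2 of the 5 every gonadotropin mouse was above every untreated mouse, where 10% of all tested genes were. Hsp90aa1, a cytosolic chaperone, had 423, 442 and 441 CPM in gonadotropin mice and 295, 317 and 294 CPM in untreated mice (log2 fold change 0.46, edgeR adjusted p = 0.587). Of the other cells of the same pools given here, B cells had the Hspa1b difference too, and C1q-positive cells below the threshold did not. B cells had 101 ± 42.8 CPM in gonadotropin and 21.6 ± 6.89 CPM in untreated mice (SD, n = 5 each), with no overlap. The means of the C1q-positive cells below the threshold stood the other way. These cells had 113 ± 108 CPM in gonadotropin (SD, n = 5) and 212 ± 76.7 CPM in untreated mice (SD, n = 4). The difference in change between them and the members was 3.67 ± 1.11 on the log2 scale and did not pass (edgeR adjusted p = 1; unadjusted p = 0.0041). That fit used only the mice with at least 5 cells of both classes, gonadotropin mice 2, 3 and 4 and untreated mice 3 and 5.

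Immediate early genes, which cells switch on within minutes of a stimulus, stood the other way. None of the 10 tested of 14 listed had a positive fold change, with a median of -1.21. In 6 of them (Jun, Junb, Dusp1, Zfp36, Klf6 and Btg2) every gonadotropin mouse was below every untreated mouse, where 5.46% of all tested genes were lower without overlap. None of the 10 passed edgeR's test, and the adjusted p of these 6 lay between 0.241 and 0.448, while DESeq2's Wald test called Dusp1 (adjusted p = 0.0341). Fos, a subunit of the AP-1 factor, had 207, 173 and 210 CPM in gonadotropin and 160, 824 and 721 CPM in untreated mice, which overlap. In B cells of the same pools Fos averaged 112 ± 14.2 CPM in gonadotropin and 279 ± 28.7 CPM in untreated mice, without overlap (SD, n = 5 each). Junb (146 ± 14.8 and 274 ± 37.1 CPM), Klf6 (169 ± 18.4 and 231 ± 19.8 CPM) and Dusp1 were lower there too, without overlap. Jun (169 ± 23.9 and 138 ± 24.6 CPM) and Btg2 had higher means and Zfp36 a lower mean, all with overlap. In C1q-positive cells below the threshold 5 immediate early genes were tested. None had a positive fold change, and the median was -0.88 on the log2 scale. In each of them the mice of the groups overlapped, and none passed edgeR's test. The part of whatever B cells, C1q-positive cells below the threshold and members of a pool share in these differences was not tested.

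Tenm4, a teneurin transmembrane protein (chromosome 7, 96171244 to 96911093, GRCm38.p6), had 0, 0 and 13.6 CPM in gonadotropin mice 2, 3 and 4 and 147, 222 and 77.0 CPM in untreated mice 1, 3 and 5. The gonadotropin singles held 2 UMIs in 1 cell, and the untreated singles 51 UMIs in 5 of 20 cells, so the values rest on few cells. Each of these 5 cells also held at least 19010 CPM of Retnla, and they are all the untreated singles with 1000 CPM of Retnla or more. The log2 fold change was -5.23 ± 0.78 (edgeR adjusted p = 0.0369), and the ratio over all singles was 0.0239 (0.00282 to 0.0909). In doublets Tenm4 had 25.6 CPM in the gonadotropin and 293 CPM in the untreated pool, a ratio of 0.0876 (0.0624 to 0.123). Its UMIs were in 8 of 110 gonadotropin and 4 of 11 untreated doublets, of which 6 and 4 held 1000 CPM of Retnla or more.

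Pde4b, a phosphodiesterase that breaks down cyclic AMP (chromosome 4, 102087332 to 102607275), had 9.20, 16.1 and 20.4 CPM in gonadotropin and 160, 309 and 105 CPM in untreated mice. The log2 fold change was -3.68 ± 0.52 (edgeR adjusted p = 0.0369). The doublets had 51.6 CPM in the gonadotropin and 144 CPM in the untreated pool, a ratio of 0.358 (0.246 to 0.533). Cd81, a tetraspanin (chromosome 7, 143052750 to 143067930), had 46.0, 48.2 and 109 CPM in gonadotropin and 258, 364 and 252 CPM in untreated mice. Its log2 fold change was -2.24 ± 0.36 (edgeR adjusted p = 0.0452), and the doublets had 50.9 and 214 CPM, a ratio of 0.238 (0.172 to 0.332) against 0.235 (0.160 to 0.338) in the singles. In all 3 genes every gonadotropin mouse was below every untreated mouse, and the gonadotropin doublets were below the untreated doublets.

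Because the pools had unequal shares of members on the sides of the MHC class II split, a difference that was not tested, these values are also given on the high side alone. There Cd81 stood at 44.9 CPM in gonadotropin doublets and 46.8 CPM in gonadotropin singles, and at 333 and 302 CPM in the untreated ones. Tenm4 stood at 35.0 and 4.93 CPM, and at 708 and 285 CPM. Pde4b stood at 53.9 and 9.86 CPM, and at 208 and 196 CPM. On the low side Tenm4 had 0 UMIs in 26 doublets and 9 singles of the gonadotropin pool and in 11 singles of the untreated pool, and 3 UMIs in 7 untreated doublets. Hspa1b stood at 177 and 266 CPM in gonadotropin doublets and singles of the high side, and at 104 and 61.5 CPM in the untreated ones.

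**Figure D5:**
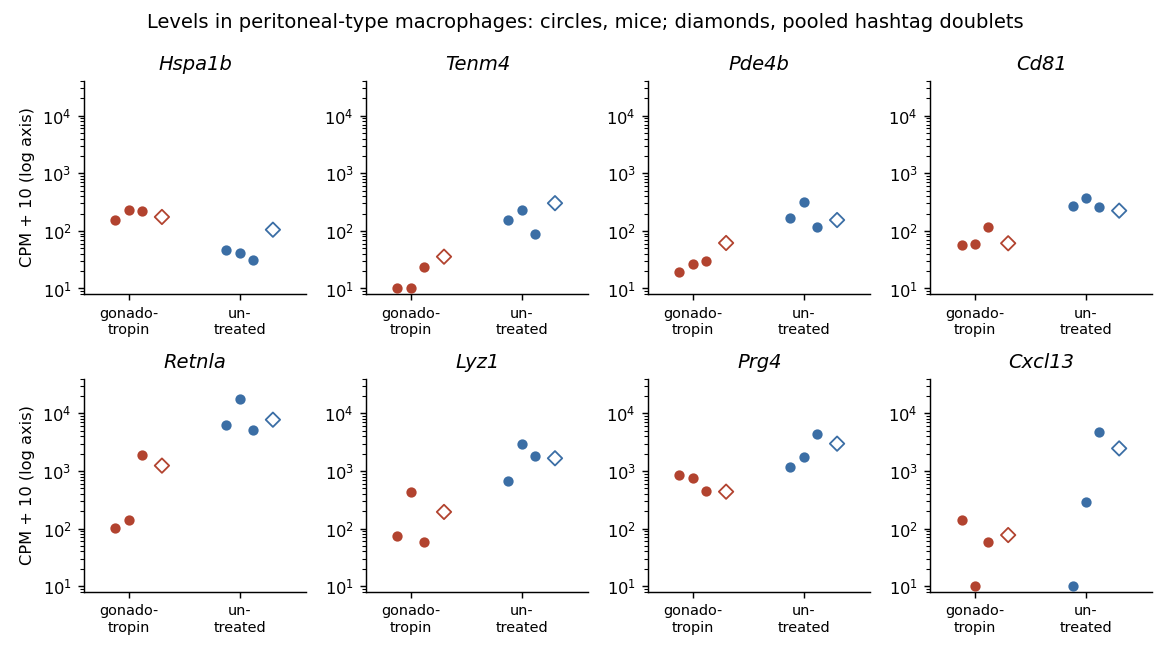
Levels of 8 genes in members (y axis, CPM + 10, log), with the gonadotropin group left of the untreated group; circles are the 3 mice of each group with at least 5 single-hashtag members and open diamonds the pooled hashtag doublets. Hspa1b is higher and Tenm4, Pde4b and Cd81 lower in the gonadotropin mice; the lower row shows Retnla, Lyz1 and Cxcl13, which did not pass the test, and the rule gene Prg4.

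The secreted products Retnla and Lyz1 did not pass the edgeR test. Among 13 alternative fits, those with 1 mouse left out included, Retnla passed in 2 and Lyz1 in 4, without a change of direction. Retnla (chromosome 16, 48842609 to 48844461) had 92.0, 133 and 1880 CPM in gonadotropin mice 2, 3 and 4 and 6361, 17766 and 5239 CPM in untreated mice 1, 3 and 5. The groups did not overlap (log2 fold change -3.86 ± 0.97, edgeR adjusted p = 0.241). The doublets had 1229 CPM in the gonadotropin and 7765 CPM in the untreated pool, a ratio of 0.158 (0.150 to 0.167). Few cells carry it: the top pair of cells held 90% of its UMIs in gonadotropin singles. Lyz1 had 64.4, 422 and 47.5 CPM in gonadotropin and 651, 2962 and 1842 CPM in untreated mice (-3.35 ± 0.73, edgeR adjusted p = 0.167), and 185 and 1653 CPM in the doublets. The top pair of cells held 76.7% of the Lyz1 UMIs in gonadotropin singles and 63.2% in untreated singles. Prg4 had 828, 731 and 434 CPM in gonadotropin and 1142, 1750 and 4398.5 CPM in untreated mice, and 427 and 2972 CPM in the doublets; it is a gene of the rule and is given without a test. For Retnla and Lyz1 mice and doublets pointed the same way. Of 4 tested genes of the alternative activation list, 1 had a positive fold change. By cells with a UMI, Arg1, arginase 1, stood opposite to Retnla. It was found in 20 of 28 gonadotropin and 1 of 20 untreated singles, and in 61 of 110 and 1 of 11 doublets. The 1 untreated doublet with Arg1 held 8649 CPM of it.

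Retnla is known as a target of STAT6, the factor that IL-4 and IL-13 activate, and its upstream window is shown for the motif of that factor. It lies at chr16:48842359-48842608 on the plus strand (RefSeq, GRCm38.p6), and capitals mark a match to TTC and GAA with any 4 bases between, searched on both strands.
Retnla: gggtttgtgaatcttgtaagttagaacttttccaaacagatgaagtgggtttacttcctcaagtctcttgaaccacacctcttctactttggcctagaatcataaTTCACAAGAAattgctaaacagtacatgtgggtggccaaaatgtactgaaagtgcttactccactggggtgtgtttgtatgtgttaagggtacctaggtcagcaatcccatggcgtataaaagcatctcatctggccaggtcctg
It holds 1 match, as do 1923 of 32851 windows at least once (5.85%), and the windows of Hspa1a, Hspa1b, Tenm4, Pde4b and Cd81 hold none.

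The other rule genes helped to choose the cells, so their levels by group are a description. Fn1 had 9519, 6806 and 8714 CPM in gonadotropin and 7687, 7002 and 5316 CPM in untreated mice. Ltc4s had 1426, 1113 and 889 CPM in gonadotropin and 847, 253 and 714 CPM in untreated mice. Alox15 had 336, 450 and 305 CPM, and 282, 515 and 2059 CPM. Saa3 had 4162, 4351 and 2538 CPM, and 36.8, 1315 and 3208 CPM; its pool ratio was 2.20 in singles and 0.348 in doublets, so the kinds of barcode disagreed in direction. The markers Cd5l and Cxcl13 stand outside the rule, and neither passed the test. Cd5l had 750, 498 and 441 CPM in gonadotropin and 12.3, 230 and 406 CPM in untreated mice (log2 fold change 1.19 ± 0.58, edgeR adjusted p = 0.588), without overlap, but 296 and 268 CPM in the doublets. Cxcl13 had 133, 0 and 47.5 CPM, and 0, 285 and 4819 CPM; the top pair of cells held 94.3% of its UMIs in untreated singles.

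Of the 33 listed peritoneal macrophage genes 25 were tested, and none passed. The fold change was positive in 10 of them, with a median of -0.30 on the log2 scale against -0.03 over all tested genes. In 5 of them every gonadotropin mouse was above every untreated one and in 0 below, where 10% and 5.46% of all tested genes were. Itgam, the integrin CD11b, had 1872, 1736 and 1731 CPM in gonadotropin and 761, 1046 and 1072 CPM in untreated mice (log2 fold change 0.81 ± 0.22, edgeR adjusted p = 0.247). Icam2 had 400.1, 402 and 462 CPM, and 160, 150.5 and 350.2 CPM (0.81 ± 0.35, edgeR adjusted p = 0.496). The others were Cd5l, Padi4 and Cebpb. Of 7 MHC class II genes 1 had a positive fold change and none was apart. Mertk, a receptor for the uptake of dead cells, had 294, 217 and 210 CPM in gonadotropin and 98.2, 87.1 and 154 CPM in untreated mice (0.98 ± 0.33, edgeR adjusted p = 0.376). The gonadotropin receptor genes were at or near 0, with no UMI of Lhcgr in any member, and 1 UMI of Fshr in the doublets of each pool. The glucocorticoid receptor gene Nr3c1 had 207, 261 and 197 CPM in gonadotropin and 221, 182 and 175 CPM in untreated mice, which overlap.

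In the C1q-positive cells below the threshold the same comparison, over mice with at least 5 such cells, called 0 of 835 genes by edgeR and 0 by DESeq2, with 27 genes (3.23%) at an unadjusted p under 0.05. The difference in change between them and the members was called for 0 of 3396 genes by edgeR, with 101 (2.97%) at an unadjusted p under 0.05. This fit used the 5 mice with at least 5 cells of both classes. None of the changes above is thus shown to be particular to the members.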

How the data were processed

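Each deposited value is a raw count, the UMIs of a gene in a barcode, without normalization by the authors. Per the submitters' processing notes, bcl2fastq, Cell Ranger and Seurat were used with the build mm10, with no version given. Hashtag calls and mouse numbers are those deposited by the authors. The deposited hashtag margin, a score by its column header, selected no barcode. Filters asked for 500 genes or more and a mitochondrial share below 10%. Sums per mouse (at least 5 cells) were tested with edgeR 4.0.16 in R 4.3.3 (TMM, filterByExpr, quasi-likelihood F test, Benjamini-Hochberg over all genes tested), with DESeq2 1.42.0 as an alternative. The fits were checked on simulated data. CPM use plain UMI totals, and fold changes come from the fit. Shares were compared by exact permutation over mice. Named genes were the listed genes, those past an adjusted p of 0.05, and the 15 highest and 15 lowest against C1q-positive cells below the threshold. Members, lists and rules were chosen with earlier results of these data known. Nothing in the labels pairs mice across groups. Positions and promoters are RefSeq's, GRCm38.p6, matched by symbol. No doublet caller was run, since hashtag doublets are part of the subject.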

Additional observations from a re-analysis of the deposited data

How the results depend on the processing

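Of 2617 genes, 4 were called in the members, against 7 with DESeq2's Wald test, 3 with its size factors, 2 with all mice that had a member cell (chosen after seeing the data), 29 at a rule sum of at least 20 UMIs, 3 at a sum of at least 5, and 126 with no filter on low counts. Leaving out 1 mouse gave 0 to 19 calls. Hspa1b, Tenm4, Pde4b and Cd81 kept their direction in every alternative that tested them, and Tenm4 did not pass the filter with all mice that had a member cell. DESeq2's Wald test gave no adjusted p for Hspa1b, Tenm4 or Pde4b. Below the threshold the count of 0 became 15 with no filter on low counts. For the difference in change between the classes, the count of 0 became 2 with no filter and 0 to 5 with 1 mouse left out. With cells thinned to 2000 UMIs, 1571 genes rather than 648 were at least 2-fold higher and 1378 rather than 772 at least 2-fold lower in members than in cells below the threshold, with 518 and 525 shared. The share differences kept direction and stayed on the same side of the threshold in all alternatives, at 0.0389 to 0.901 and -16.8 to -3.66 percentage points with 1 mouse left out. No paired analysis was possible because the mouse numbers only name mice. A minimum of 10 member cells a mouse left too few mice and was not run. The 48 single-hashtag members limit what could be detected.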
